A study of Macaca mulatta with 22 samples.

Results

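The genes of the mitochondrial ribosome were followed through oocyte maturation and preimplantation development in 22 single rhesus macaque (Macaca mulatta) oocytes and embryos. Entries were taken when their symbol begins with MRPL or MRPS followed by a digit, the names given to proteins of the large and the small subunit, and when they reached at least 1 RPKM (a read count scaled to transcript length and to the number of mapped reads) in at least 2 libraries. In all 69 entries bear such a name, and 62 of them passed this minimum out of 35468 entries in the table. The 62 comprise 41 MRPL entries (37 symbols) and 21 MRPS entries (21 symbols). The 7 that did not pass are further entries of MRPL10, MRPL22 and MRPL52, 2 further entries of MRPL30, and single entries of MRPL54 and MRPS28. Just inside the minimum lay MRPL28 and MRPL4, with second-highest values of 1.31 and 1.43 RPKM, and just outside it MRPL54 and MRPS28, with 0.59 and 0.322 RPKM.

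Stages are named as follows. Of the oocytes, 2 were at the germinal vesicle stage (GV), 2 in metaphase I (MI) and 3 in metaphase II (MII). Of the embryos, 3 were pronuclear (PN), 2 had 2 cells (2C), 3 had 4 cells (4C), 2 had 8 cells (8C), 3 were morulae (Mo) and 2 were blastocysts (Bl). No genotype or drug treatment distinguishes them; the oocytes were obtained after death from superovulated animals, and the embryos came from intracytoplasmic sperm injection followed by culture, so PN and MII differ in source as well as in stage. Each library is a single oocyte or embryo, and no label ties libraries to an animal, so p-values measure the spread between these single cells and embryos only. Neighbouring stages were compared, together with MII against GV, Bl against 8C and Bl against MII, with limma on log2(RPKM + 1) over the 14312 entries that reached 1 RPKM in 2 libraries. A change was called at a 2-sided Benjamini-Hochberg adjusted p under 0.05, and "rose" and "fell" refer to such calls.

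Mitochondria keep their own ribosome to translate the few proteins that mitochondrial DNA encodes, all of them core parts of the respiratory chain and the ATP synthase. Its RNAs are mitochondrial transcripts, whereas every protein is encoded in the nucleus, made in the cytosol and imported. The small subunit reads the messenger RNA and the large subunit forms the peptide bond and delivers the product to the inner membrane. Many of the proteins descend from bacterial ribosomal proteins, and others joined the particle in eukaryotes. Oocytes carry very many mitochondria that are structurally simple, and the embryo lives on this maternal stock until its own genome takes over transcription and the mitochondria mature around the blastocyst stage.

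Estimated depth ran between 5.58 and 21.83 megareads per library. Morula library 2 stood apart: 4277 of all entries were at 1 RPKM or more in it, against 6763 to 10017 in the other 21 libraries, and the median over all tested entries was 0.021 RPKM in it. Of the 62 mitoribosomal entries it held 41 at that level, where 4C library 2 held 40 and the other libraries 45 to 60. Sums of marker genes followed the labels in the main, but not every gene did. The 5 listed oocyte genes summed to 2.12 to 5.85 RPKM at Bl and 2147 to 2517 RPKM at GV. Of these, GDF9 averaged 207 RPKM at 4C and 134 RPKM at GV. The 3 listed genome activation genes summed to 5061 to 5806 RPKM at 8C and 11.3 to 13.6 RPKM at 4C, and still to 848 to 4144 RPKM at Mo. The blastocyst genes KRT18, KRT8, GATA3 and GATA2 together reached 912 to 1232 RPKM at Bl, nearly all of it KRT18. KRT8 did not exceed 0.327 RPKM in any library. The 10 listed genes of cumulus or granulosa cells summed to 31.4 to 75.5 RPKM at Bl and to at most 6.34 RPKM in every earlier library; at Bl CYP11A1 made up most of the sum and FOXL2, AMH and AMHR2 were listed at 0 in all libraries. RPKM is a share of the library: an embryo of many cells and a single oocyte are put on the same scale, and a change in RNA per cell cannot be told apart from a change in cell number or cell make-up.

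The median level of the mitoribosomal entries was high in the germinal vesicle oocyte and low between MII and the 4-cell stage, and its stage mean was highest in the blastocyst. Entries are split here by name, MRPL or MRPS, which is not always the subunit that holds the protein. The median over the 41 MRPL entries was 34.9 ± 6.09 RPKM at GV, 31.5 ± 6.97 at MI, 10.8 ± 3.79 at MII, 9.04 ± 1.17 at PN, 7.87 ± 2.16 at 2C and 5.1 ± 2.47 at 4C, then 13.03 ± 3.71 at 8C, 22.3 ± 14.3 at Mo and 88.0 ± 54.4 at Bl (mean ± SD over the libraries of the stage, n = 2 or 3). The 21 MRPS entries followed the same order of events, with 53.9 ± 6.62 RPKM at GV, 38.6 ± 4.58 at MI, 13.3 ± 5.25 at MII, 15.7 ± 4.34 at PN, 12.1 ± 5.91 at 2C and 9.39 ± 2.96 at 4C, then 25.5 ± 2.73 at 8C, 53.4 ± 28.3 at Mo and 96.7 ± 60.4 at Bl. Blastocyst libraries 1 and 2 had MRPS medians of 139 and 54.04 RPKM, against 58.6 and 49.2 RPKM at GV, so for MRPS entries the second blastocyst lay between the GV oocytes. The summed RPKM of the MRPS entries had its highest stage mean at GV, with 3324 and 3216 RPKM at GV, 2799 and 2702 RPKM at MI and 3392 and 1714 RPKM at Bl. Over the same stages the median of all 14312 entries tested stayed between 0.6 and 3.03 RPKM, with its minimum at Mo. The neighbouring stages MII, PN and 2C lay within the spread of their own libraries for MRPL and MRPS entries, and so did GV and MI for MRPL entries.

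**Figure D1:**
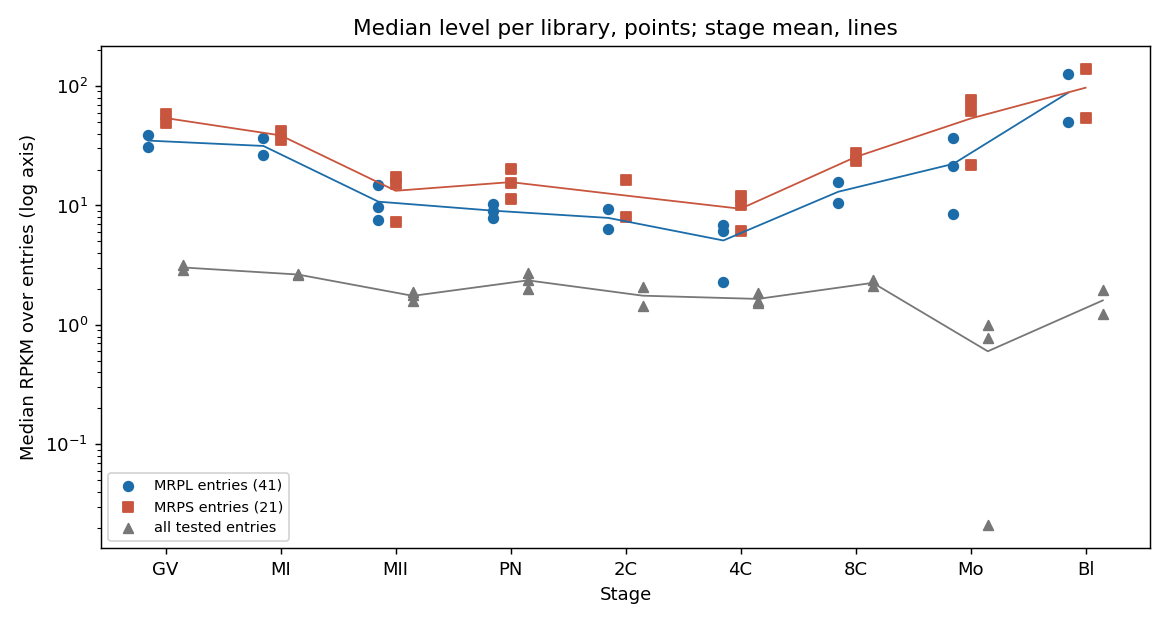
Median RPKM over the MRPL entries (circles), the MRPS entries (squares) and all tested entries (triangles) in each library, on a log axis, by stage; lines join the stage means. Between MII and 4C the stage means are at most 10.8 RPKM for MRPL and 15.7 RPKM for MRPS entries, and both stage means are highest at Bl, whereas the median of all entries is lowest at Mo.

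The blastocyst values differed between the 2 embryos. The median over all 62 entries was 136 RPKM in blastocyst library 1 and 50.5 RPKM in library 2, and 57 of the 62 entries were higher in library 1; over all tested entries the order was the other way, at 1.24 and 1.97 RPKM. The morulae spread widely too, at 27.2, 13.5 and 51.3 RPKM. Within stages the median SD of the entries on the log2(RPKM + 1) scale was 0.17 at GV and 0.15 at MI, 0.37 to 0.54 at the stages MII to 8C, 1.01 at Mo and 0.75 at Bl; that of all tested entries was 0.52 at Mo and 0.36 at Bl. At Mo and Bl the median SD was thus larger for the mitoribosomal entries than for all tested entries. It was also larger at MII (0.53 against 0.32), PN (0.51 against 0.44), 2C (0.54 against 0.39) and 4C (0.53 against 0.4). At GV, MI and 8C it was smaller, with 0.19, 0.19 and 0.46 for all tested entries. Entries of like level were not compared.

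Of the 62 entries, 42 (67.7%) had their highest stage mean at Bl, compared with 18.1% of all tested entries. By name these were 30 of 41 MRPL entries (73.2%) and 12 of 21 MRPS entries (57.1%). MRPL23 and MRPL28 are among them, and both passed the minimum of 1 RPKM through the 2 blastocysts alone. Without blastocyst library 1 the counts were 30 of 62 entries, 23 of 41 MRPL and 7 of 21 MRPS entries. A further 8 entries were highest at GV (12.9%, against 16.3% of all tested entries), 4 at MI (6.5% against 9.3%) and 4 at MII (6.5% against 11.5%). At Mo 3 were highest (4.8% against 9.7%) and at 8C 1 (1.6% against 15.7%). At PN, 2C or 4C 0 were, against 9.5%, 5.0% and 4.8% of all tested entries. The lowest stage mean fell at 4C in 17 entries, at MII in 13, at 8C in 12, at 2C in 8, at Mo in 7 and at Bl in 0, whereas 27.4% of all tested entries were lowest at Mo. The limma F test over the 9 stages called 57 of the 62 entries, against 68.3% of all tested entries; MRPS33, MRPL37, MRPL19, the shorter MRPL27 entry and MRPS36 did not pass.

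**Figure D2:**
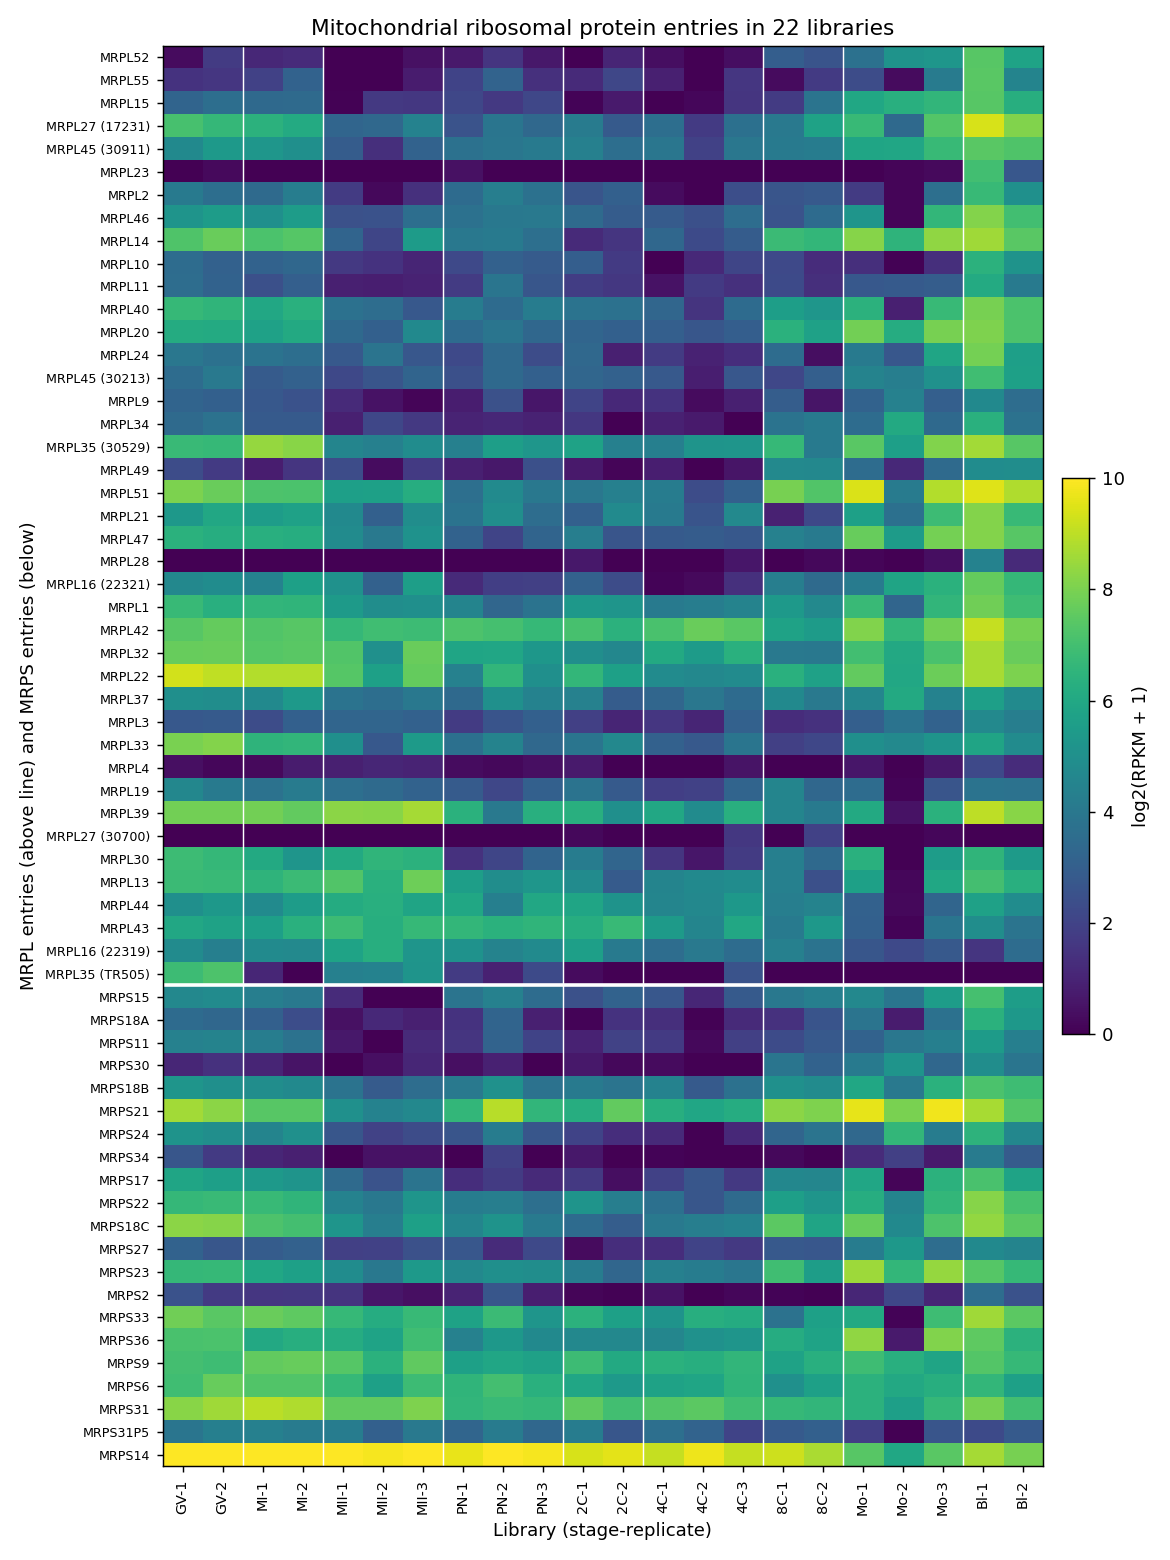
log2(RPKM + 1) of each of the 62 entries (rows, MRPL above the white line and MRPS below it, ordered by the Bl minus MII change) in each of the 22 libraries (columns, by stage), on a colour scale that ends at 10; brackets give the last digits of the identifier where a symbol has more than 1 entry. Most rows are dark between MII and 4C and bright at Bl, and MRPS14 at the bottom is bright through the oocyte and early embryo.

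The stage profiles of the MRPL and MRPS entries resembled each other. Across the 9 stage means, the median Pearson r of log2(RPKM + 1) between pairs of entries was 0.57 among the MRPL entries, 0.61 among the MRPS entries and 0.58 between them, and 51 of the 62 entries had r of 0.5 or more with the median of the other entries. These correlations share the same libraries and describe these 9 stages only. The 7 entries with a negative r were MRPL43, MRPS14, MRPL44, MRPS31P5, 1 of 2 MRPL16 entries, 1 of 2 MRPL27 entries and 1 of 2 MRPL35 entries. MRPL46 and MRPS11, which lie 42 bp apart on chromosome 7 and encode proteins of different subunits, had r of 0.92 over the 9 stages. With the median of the other entries their r was 0.96 and 0.92, so the value is not particular to the pair. No strand is given for them.

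MRPS14 had the highest mean level of the 62 entries and made up much of the sum of the MRPS entries. MRPS14 (chr1:204627077-204636101, coordinates as deposited; the file names no build, and the submitters' processing notes name Mmul_8.0.1) encodes a relative of bacterial S14 in the head of the small subunit. It had 1295 and 1199 RPKM at GV, 1027 and 1041 at MI, 1156, 932 and 1647 at MII, 818, 1659 and 923 at PN, 673 and 760.5 at 2C and 549, 849 and 549 at 4C, then 601 and 423 at 8C, 169.8, 60.9 and 171 at Mo and 405 and 247 at Bl. All oocyte and PN libraries lie above all later ones except 4C library 2, and the 3 morulae are the lowest. It fell at Mo against 8C (log2 change -2.05 ± 0.47 (SE), adjusted p = 0.00296) and at Bl against MII (log2 change -1.93 ± 0.47 (SE), adjusted p = 0.00265). MRPS14 made up 37.3% to 39.0% of the summed RPKM of the MRPS entries at GV, 59.1% to 62.9% at MII and 59.5% to 65.2% at PN, and 6.7% to 7.0% at Mo.

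The summed RPKM of the MRPL entries over that of the MRPS entries was 0.98 and 0.99 at GV, 0.93 and 1.0 at MI, 0.72 to 0.79 at MII, 0.29 to 0.57 at PN, 0.44 and 0.65 at 2C and 0.37 to 0.66 at 4C, then 0.64 and 0.68 at 8C, 1.12 to 1.36 at Mo and 2.20 and 2.33 at Bl. Leaving MRPS14 out of the sum gave 1.57 and 1.61 at GV, 1.91 to 2.09 at MII, 0.71 to 1.49 at PN, 0.96 and 1.07 at 8C, 1.21 to 1.46 at Mo and 2.57 and 2.64 at Bl. Both blastocysts had the highest ratio by either sum. The ratio covers only the 62 entries of the set, and no test was run on it. Entries named MRPL or MRPS only by WikiGene are left out of both sums, and the ratio depends on that choice. Of these, MRPL50 averaged 405 RPKM at 4C, where the MRPL sum averaged 603 RPKM. At Bl it averaged 331 RPKM, where that sum averaged 5831 RPKM. On the MRPS side MRPS28 and MRPS10 (38.6 and 38.1 RPKM at 4C) are left out too.

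Levels of the set were lower at MII than at GV. Between the first 2 oocyte stages 1 of 62 entries fell and 0 rose at MI against GV (0.377% and 0.21% of all tested entries; 2 fell and 0 rose at an unadjusted p under 0.05 in limma), and the median log2 change was -0.16 for the entries and -0.05 for all tested entries. At MII against MI, 11 entries fell and 1 rose, where 6.99% of all tested entries fell and 1.49% rose. The count of 12 became 2 without MI library 1, 4 without MI library 2, 6 without MII library 2 and 25 without Mo library 2. At MII against GV, 19 entries fell and 0 rose, where 8.97% of all tested entries fell and 0.342% rose; at an unadjusted p under 0.05, 29 fell and 2 rose. The median log2 change was -1.35 over the 62 entries and -0.19 over all tested entries. The 19 comprised 11 of 41 MRPL and 8 of 21 MRPS entries, and 15 of the 39 with a bacterial relative and 4 of the 22 without; the pseudogene-named MRPS31P5 was put in neither class. Without GV library 1 or 2 the count was 5, without MII library 1 it was 11, without MII library 2 it was 7, and without Mo library 2 it was 30.

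Among the falls at MII against GV that held with each library left out, the 4 largest were in relatives of bacterial ribosomal proteins. MRPS15 (chr1:39319643-39329196), which encodes the relative of bacterial S15 in the small subunit, had 24.3 and 27.5 RPKM at GV, 18.4 and 15.5 RPKM at MI and 1.35, 0 and 0 RPKM at MII. All 3 MII libraries lie below every library of the earlier stages (MII against GV, log2 change -4.33 ± 0.62 (SE), adjusted p = 0.000424), and it also fell at MII against MI (adjusted p = 0.0011). MRPL14 (chr4:44032930-44035526), the relative of bacterial L14 on the face of the large subunit that meets the small subunit, had 8.36, 3.21 and 43.8 RPKM at MII and 151 and 210.0 RPKM at GV (log2 change -3.89 ± 0.73 (SE), adjusted p = 0.00302). In a fit of only these 2 stages its adjusted p was 0.11. MRPS11, a small subunit protein related to bacterial S11, had 0.555, 0.014 and 1.31 RPKM at MII and 19.98 and 21.2 RPKM at GV (log2 change -3.81 ± 0.61 (SE), adjusted p = 0.000939). MRPS21, related to bacterial S21, had 31.8, 20.5 and 24.4 RPKM at MII and 389 and 309 RPKM at GV (log2 change -3.73 ± 0.66 (SE), adjusted p = 0.00208). In each of these genes the MII and GV libraries were fully separate.

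Between MII oocytes and PN embryos as many entries rose as fell. At PN against MII, 4 entries rose and 4 fell, where 4.76% of all tested entries rose and 2.91% fell, and the median log2 changes were -0.1 and 0.06. The count of 8 was 3 without MII library 3, 4 without MII library 1 or PN library 2, 5 without PN library 1 or 3, and 17 without Mo library 2. MRPS15 had 13.2, 20.1 and 10.6 RPKM at PN, against 1.35, 0 and 0 RPKM at MII, so that its PN libraries were all above its MII libraries (log2 change 3.51 ± 0.55 (SE), adjusted p = 0.000635). Over the next 2 steps limma called 0 of 62 entries at 2C against PN, where 0.126% of all tested entries rose and 0.342% fell, and 0 of 62 at 4C against 2C, where 0.377% rose and 0.196% fell. At an unadjusted p under 0.05, 6 entries fell and 0 rose at 2C against PN, and 3 fell and 0 rose at 4C against 2C. Without Mo library 2 limma called 1 entry at 4C against 2C. The 4-cell embryos held the lowest stage mean of the series for 17 entries (27.4%, against 8.2% of all tested entries). In 4C library 2, 40 of the 62 were at 1 RPKM or more.

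At the 8-cell stage, when DUXA and the other listed activation genes became abundant, 15 entries rose and 2 fell against 4C; of all tested entries 13.9% rose and 10.2% fell. The median log2 change was 0.79 over the 62 entries and 0 over all tested entries. The rising entries were 8 of 41 MRPL and 7 of 21 MRPS entries; without 8C library 1 the MRPS count was 2 and that over all entries 12 in both directions. MRPL51 (chr11:6644736-6645951), a large subunit protein with no bacterial relative, had 246 and 156 RPKM at 8C, against 17.5, 3.99 and 7.42 RPKM at 4C (log2 change 4.42 ± 1.0 (SE), adjusted p = 0.00299). MRPL49, another protein particular to mitochondria, had 24.8 and 24.6 RPKM at 8C and 0.811, 0 and 0.496 RPKM at 4C (log2 change 4.21 ± 0.70 (SE), adjusted p = 0.000187). The 8C libraries lay far above every 4C library in both genes.

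MRPL14 was higher again at 8C, with 112 and 98.1 RPKM, against 9.16, 3.80 and 6.52 RPKM at 4C (log2 change 3.89 ± 0.73 (SE), adjusted p = 0.000624). MRPS30, whose protein carries a small subunit name but sits in the large subunit in human structures, had 13.9 and 7.80 RPKM at 8C and 0.228, 0 and 0 RPKM at 4C (log2 change 3.42 ± 0.52 (SE), adjusted p = 7.74e-05). It stayed below 2 RPKM in all oocytes and in embryos through 4C. MRPL42, a large subunit protein without a bacterial relative, moved the other way, with 52.7 and 43.8 RPKM at 8C and 139, 208 and 175 RPKM at 4C (log2 change -1.82 ± 0.46 (SE), adjusted p = 0.00635). Both 8C libraries are the lowest of the 22 for MRPL42, and in the morulae it was back at 274, 98.7 and 232 RPKM.

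In the morula more of the entries rose than fell. At Mo against 8C, 12 entries rose and 4 fell, where 5.39% of all tested entries rose and 20% fell; the median log2 change was 0.66 over the entries and -0.38 over all tested entries. Without Mo library 2 these medians were 1.29 and -0.27, and with median-of-ratios scaling they were 1.14 and -0.26. By name 10 of 41 MRPL entries and 2 of 21 MRPS entries rose, a difference that was not tested. Without Mo library 2 the count of 16 was 25 (24 higher, 1 lower), and without 8C library 2 it was 9. MRPL21 (related to bacterial L21) had 50.9, 11.8 and 114 RPKM at Mo and 0.887 and 3.50 RPKM at 8C (log2 change 3.87 ± 0.86 (SE), adjusted p = 0.00242). MRPL15 (related to bacterial L15) had 60.5, 77.5 and 94 RPKM at Mo and 2.35 and 13.3 RPKM at 8C (log2 change 3.48 ± 0.63 (SE), adjusted p = 0.000428). Mo and 8C did not overlap in either gene. MRPL47, the relative of bacterial L29 near the exit of the peptide tunnel, had 203, 44 and 241 RPKM at Mo and 19.8 and 15.9 RPKM at 8C (log2 change 2.80 ± 0.64 (SE), adjusted p = 0.00289); it overlaps ACTL6A (mean 56.5 RPKM over the 22 libraries) in position. The MRPL33 entry of the set (IMMRNTR6164), whose name is in doubt, had 30.2, 24.8 and 35.2 RPKM at Mo and 2.75 and 3.40 RPKM at 8C (log2 change 2.92 ± 0.63 (SE), adjusted p = 0.00186). A further entry, named MRPL33 only by WikiGene, had 1.39, 2.64 and 2.77 RPKM at Mo and 0 and 3.16 RPKM at 8C. It was not called (limma adjusted p = 0.585). With only Mo and 8C in the fit, MRPL21 (adjusted p = 0.141), MRPL15 (0.0753), MRPL47 (0.166) and MRPS14 (0.147) were no longer called, and 2 of 62 entries were.

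In the blastocyst, calls against the morula ran in 1 direction. At Bl against Mo, 18 entries rose and 0 fell, where 12% of all tested entries rose and 2.12% fell; at an unadjusted p under 0.05, 34 rose and 0 fell. The median log2 change was 1.53 over the entries and 0.23 over all tested entries. Without Mo library 2 these medians were 0.94 and 0.13, without blastocyst library 1 they were 1.05 and 0.32, and with median-of-ratios scaling they were 0.99 and 0.08. The 18 were 13 of 41 MRPL and 5 of 21 MRPS entries, 9 with and 9 without a bacterial relative. The count rests on the libraries of both stages: it was 3 without blastocyst library 1, 12 without Mo library 2, 29 without Mo library 3 and 0 in a fit of only these 2 stages. The sum of the cumulus and granulosa markers was higher in the 2 blastocyst libraries, mostly through CYP11A1 (mean 49.98 RPKM at Bl). The other listed genes did not share that level. HSD3B2 averaged 2.61 RPKM at Bl, STAR 0.658, CYP19A1 0.169, INHA 0.037 and FSHR 0.018 RPKM, and LHCGR was at 0. What these genes mean for the results at Bl was not tested.

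MRPL10 (chr16:32033005-32040697), which encodes the base of the stalk that recruits translation factors to the large subunit, had 85.7 and 33.8 RPKM at Bl, against 1.55, 0.053 and 1.52 RPKM at Mo (log2 change 4.86 ± 0.62 (SE), adjusted p = 2.28e-05). Both blastocysts lie above all other 20 libraries, of which the highest had 10.5 RPKM. In the fit of only these 2 stages its adjusted p was 0.0692. MRPL23 and MRPL28 are among the 18, but each reached 1 RPKM in the 2 blastocysts alone and so entered the set through the stage where it is high; their values are given as a description, with no test. MRPL23 (chr14:1862804-1868434), the relative of bacterial L23 at the exit of the peptide tunnel, had 123 and 5.65 RPKM at Bl and 0, 0.089 and 0.204 RPKM at Mo, and it did not exceed 0.362 RPKM in any library before the blastocyst. MRPL28, related to bacterial L28, had 20.4 and 1.31 RPKM at Bl and 0.112, 0 and 0.303 RPKM at Mo. Blastocyst library 1 was far above library 2 in both.

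Set against the 8-cell stage, 34 of 62 entries rose at Bl and 0 fell, where 12.8% of all tested entries rose and 14.7% fell; at an unadjusted p under 0.05, 38 rose and 1 fell. The median log2 change was 2.26, against -0.04 over all tested entries. These were 26 of 41 MRPL and 8 of 21 MRPS entries, and the difference in share was not tested. MRPL23 and MRPL28, which passed the minimum through the blastocysts alone, are counted in the 34 and the 26. Without blastocyst library 1 the count was 19 (17 MRPL and 2 MRPS entries), without Mo library 2 it was 43, and in a fit of only these 2 stages it was 0. MRPL21 had 279 and 106 RPKM at Bl and 0.887 and 3.50 RPKM at 8C (log2 change 5.89 ± 0.94 (SE), adjusted p = 0.000116). MRPL55 (chr1:142274356-142276939), a large subunit protein, had 174 and 21.9 RPKM at Bl and 0.213 and 2.21 RPKM at 8C (log2 change 5.0 ± 1.02 (SE), adjusted p = 0.0011). MRPL24, related to bacterial L24, had 238 and 49.6 RPKM at Bl and 10.6 and 0.292 RPKM at 8C (log2 change 4.83 ± 1.04 (SE), adjusted p = 0.00173). The blastocysts were above both 8-cell embryos in each gene, and blastocyst library 1 was several times library 2 in MRPL55 and MRPL24. MRPL23 was listed at 0 in both 8-cell embryos, so no fold is given.

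Between the end of oocyte maturation and the blastocyst, 41 of 62 entries rose and 4 fell, where 19.7% of all tested entries rose and 21.4% fell. The median log2 change was 3.1 over the entries and -0.01 over all tested entries, and it was 3.19 for MRPL and 2.85 for MRPS entries. Leaving out 1 library gave totals between 32 and 48. The 41 include MRPL23 and MRPL28, which passed the minimum through the blastocysts alone. MRPL52 (chr7:85642374-85646605), a large subunit protein particular to mitochondria, had 170.5 and 55.1 RPKM at Bl, against 0, 0 and 0.377 RPKM at MII (log2 change 6.46 ± 0.57 (SE), adjusted p = 7.06e-08). It stayed at or below 2.36 RPKM in every library through 4C, reached 6.89 and 5.05 RPKM at 8C and had 12.3, 33.8 and 37.01 RPKM at Mo. MRPS15 had 133 and 46.8 RPKM at Bl and 1.35, 0 and 0 RPKM at MII (log2 change 5.91 ± 0.62 (SE), adjusted p = 5.37e-07). MRPL15 had 169 and 77.2 RPKM at Bl and 0.036, 2.15 and 2.08 RPKM at MII (log2 change 5.74 ± 0.63 (SE), adjusted p = 9.78e-07). MRPL55 had 174 and 21.9 RPKM at Bl and 0, 0 and 0.68 RPKM at MII (log2 change 5.74 ± 0.93 (SE), adjusted p = 7.2e-05). Both blastocysts exceeded all MII oocytes in each of the 4 genes.

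**Figure D3:**
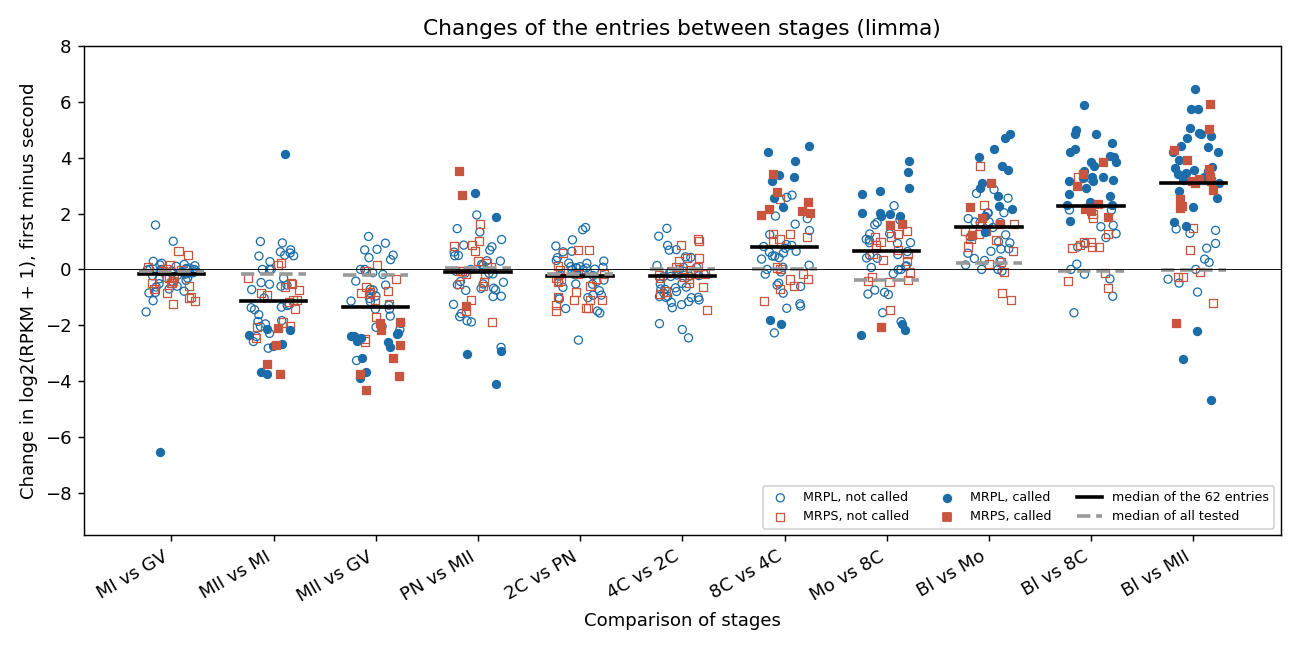
Change in log2(RPKM + 1) of each of the 62 entries (MRPL circles, MRPS squares; filled where limma called the change) in the 11 comparisons, later stage minus earlier stage; black bars are the median of the 62 entries and dashed grey bars that of all tested entries. The median of the 62 entries lies below that of all tested entries at MII against GV and above it at 8C against 4C and in the 4 comparisons to its right.

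The 4 entries that fell at Bl against MII were MRPS14, described above, MRPL43, the longer MRPL16 entry and an MRPL35 entry. MRPL43, a large subunit protein without a bacterial relative, had 28.97 and 13.3 RPKM at Bl and 113, 75.2 and 102 RPKM at MII (log2 change -2.22 ± 0.77 (SE), adjusted p = 0.0266); without MII library 1, MII library 3 or blastocyst library 2 it was not called (adjusted p up to 0.208). Its level was 96.9, 83.7 and 92.4 RPKM at PN and 74.5 and 107 RPKM at 2C, and 7.43, 0.076 and 13.7 RPKM at Mo. MRPL44, whose protein has a fold related to RNase III, had a like course, with 69.8, 77.4 and 56.9 RPKM at MII, 7.61, 0.16 and 8.62 RPKM at Mo and 51.9 and 27.9 RPKM at Bl. It fell at Mo against 8C and rose at Bl against Mo (adjusted p = 0.0335 and 0.00648), the first call being lost without either 8C library or Mo library 2 and the second without blastocyst library 1; MRPL43 and MRPL44 were named after their values were seen.

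**Figure D4:**
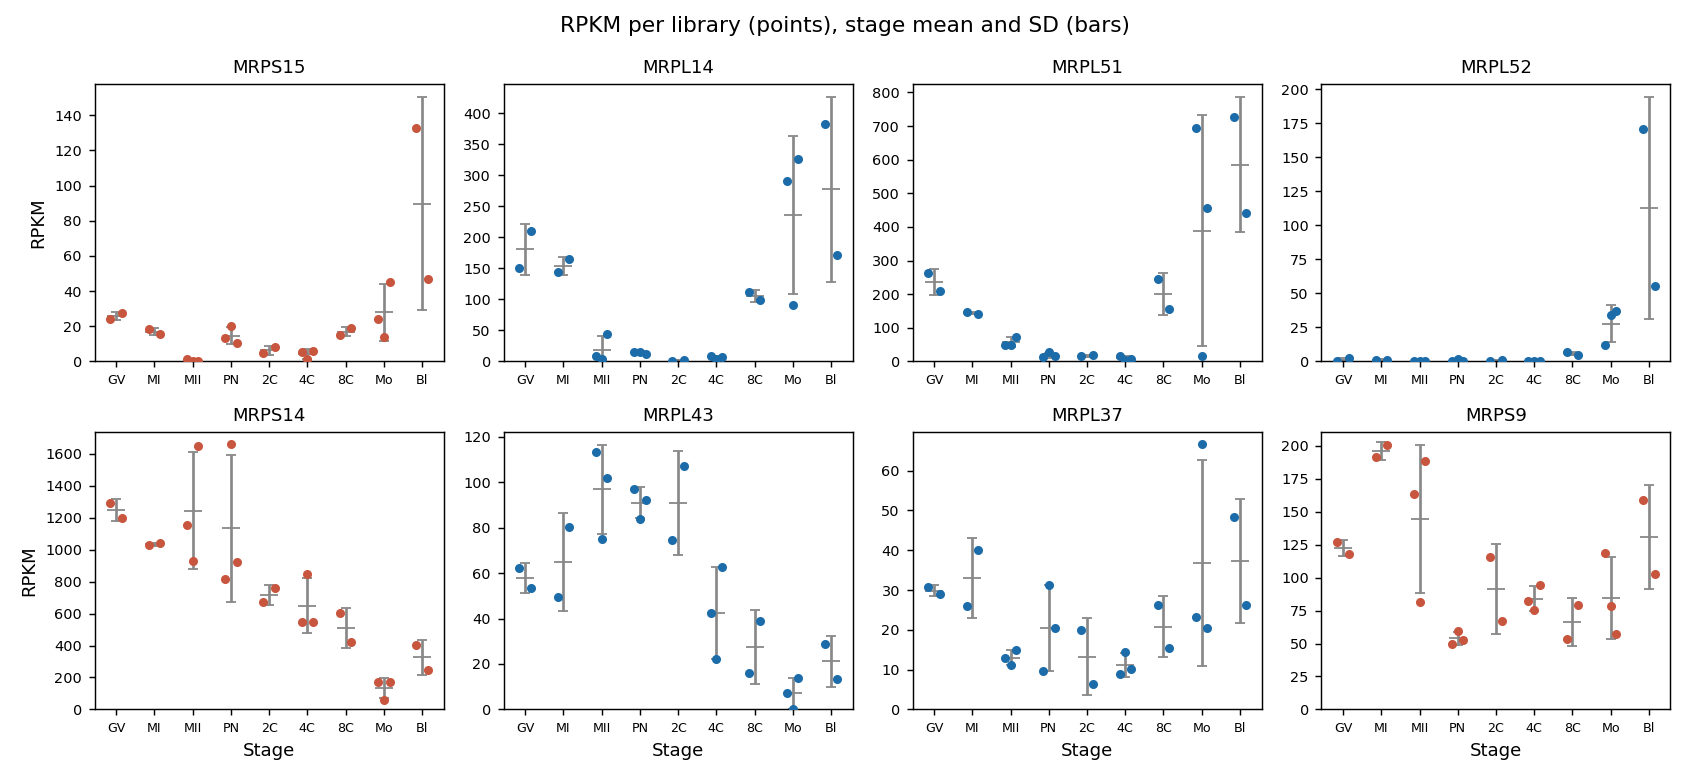
RPKM of 8 genes in each library (points; MRPS red, MRPL blue), with the stage mean and SD (bars), over the 9 stages. MRPS15, MRPL14, MRPL51 and MRPL52 are low at 4C and highest at Bl, MRPS14 and MRPL43 are highest before the 4-cell stage, and MRPL37 and MRPS9 change least.

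Among the 41 MRPL entries of the set, the most abundant over the 22 libraries were MRPL22 (mean 188 RPKM), MRPL51 (172), MRPL42 (166) and MRPL39 (152). An entry outside the set, named MRPL50 only by WikiGene, averaged 304 RPKM over the 22 libraries and 405 RPKM at 4C. MRPL22, which lines the peptide tunnel, had 640.4 and 527 RPKM at GV, 27.7, 24.6 and 27.3 RPKM at 4C and 408 and 258 RPKM at Bl. Unlike most of the set it was highest at GV. MRPL39, particular to mitochondria, was high at both ends, with 309, 294 and 399 RPKM at MII, 22.3 and 16.1 RPKM at 8C and 515 and 301 RPKM at Bl. Of the MRPS entries MRPS14 (779.8), MRPS21 (243), MRPS31 (189) and MRPS33 (109) led. MRPS21 peaked at Mo, with 793, 253 and 875 RPKM, and MRPS31 at MI, with 502 and 451 RPKM. MRPS33 had 382 and 177 RPKM at Bl and 65.7, 0.062 and 116 RPKM at Mo.

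Among entries averaging at least 10 RPKM, MRPL37, MRPS9 and MRPL19 varied least, with stage means spanning 1.65, 1.84 and 1.9 log2 units. MRPL37 ranged between 6.42 and 66.6 RPKM over the 22 libraries, both extremes in single libraries of 2C and Mo, and it overlaps SSBP3 in position. MRPS9, related to bacterial S9, was 127 and 118 RPKM at GV, 49.8, 59.7 and 52.4 RPKM at PN and 159 and 103 RPKM at Bl. The widest spans were 7.06 for an MRPL35 entry, 6.74 for MRPL14 and 6.66 for MRPL52.

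The MRPS18 family has 3 members, of which bacteria have 1 counterpart; in human structures the MRPS18C and MRPS18B proteins sit in the small subunit and MRPS18A in the large. Their levels differed by stage. MRPS18A had 0.383, 1.20 and 0.851 RPKM at MII, 13.5, 0.691 and 12.2 at Mo and 83.4 and 38.8 at Bl, and it rose at Bl against MII (adjusted p = 7.52e-05), against Mo (0.0161) and against 8C (0.00337). MRPS18B had 13.02, 6.30 and 10.8 RPKM at MII, 31.4 and 27.4 at 8C and 142 and 118 at Bl, and it rose at Bl against MII (adjusted p = 0.000102) and against 8C (0.0241). The MRPS18B call against 8C was lost without any 1 of the 4 libraries compared, and those of MRPS18A were lost without blastocyst library 1 against both Mo and 8C, and without Mo library 2 against Mo (adjusted p up to 0.174 against Mo and 0.0507 against 8C). By stage mean MRPS18C alone of the 3 was highest at GV, with 309 and 293 RPKM there and 328 and 176 RPKM at Bl. Blastocyst library 1 thus lay above both GV libraries. MRPS18C had 35.8, 18.6 and 50.6 RPKM at MII and 15.4, 18.5 and 20.5 RPKM at 4C. It fell at MII against GV (adjusted p = 0.0069) and rose at 8C against 4C (adjusted p = 0.0157), where the 8C libraries had 176 and 56.02 RPKM. Without 8C library 1 the last call was lost (adjusted p = 0.229), and without either GV library the MII call was (up to 0.0878).

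**Figure D5:**
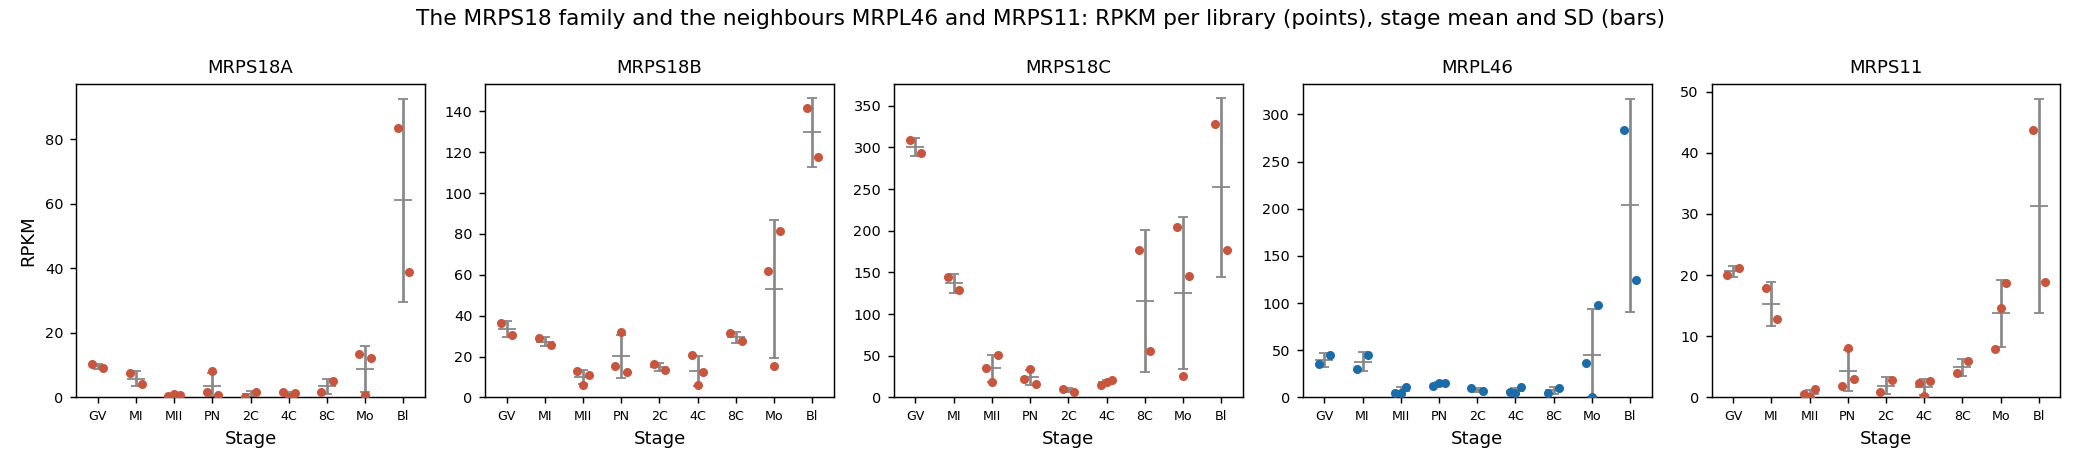
RPKM in each library (points; MRPS red, MRPL blue), with stage mean and SD (bars), of MRPS18A, MRPS18B and MRPS18C and of the neighbouring genes MRPL46 and MRPS11, over the 9 stages. MRPS18C has GV levels near its Bl levels, whereas MRPS18A and MRPS18B are highest at Bl; the neighbours MRPL46 and MRPS11 are both low at MII and at 2C to 4C and highest at Bl.

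MRPS22, in which human mutations cause mitochondrial disease, had 102 and 108 RPKM at GV, 11.9, 5.39 and 10.1 RPKM at 4C and 293 and 135 RPKM at Bl; it overlaps COPB2 (mean 57.2 RPKM) in position. The protein named MRPS36 is known in human and mouse as a component of the oxoglutarate dehydrogenase complex and is absent from structures of the ribosome. Its entry had 185 and 85.4 RPKM at Bl and 326, 0.66 and 273 RPKM at Mo, and it was called in none of the 11 comparisons nor in the F test (adjusted p = 0.6).

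Of the 62 entries, 6 have a name that the table leaves in doubt. The longer of the 2 MRPL16 entries spans 49039 bp, and the file names it STX3; it had 1.93 and 10.7 RPKM at Bl and 54.9, 75.8 and 35.7 RPKM at MII (log2 change -3.21 ± 0.56 (SE), adjusted p = 0.000151). The other MRPL16 entry, 3019 bp away, had 199 and 99.3 RPKM at Bl and 31.9, 7.62 and 47.6 RPKM at MII. The MRPL35 entry on chromosome 20 (IMMRNTR505, chr20:78502630-78693856) had 116 and 148 RPKM at GV, 1.08 and 0 RPKM at MI, 19.7, 20.7 and 35.1 RPKM at MII and 2.33, 0.909 and 3.72 RPKM at PN. It was listed at 0 in all libraries of 8C, Mo and Bl. It is the only entry that limma called at MI against GV (log2 change -6.52 ± 0.67 (SE), adjusted p = 2.14e-05). It is also the only entry called higher at MII than at MI (limma adjusted p = 0.000589), where 12 of the 62 had a positive log2 change. In a fit of only GV and MI its adjusted p was 0.147. It fell at PN against MII (adjusted p = 0.00217; 0.0907 with a pseudocount of 0.1). The MRPL35 entry on chromosome 9 had 109 and 103 RPKM at GV, 345 and 299.5 RPKM at MI and 22.2, 19.3 and 28.02 RPKM at MII. The remaining 4 are a 447 bp MRPL27 entry on chromosome 17 that exceeded 1 RPKM in 2 libraries, the IMMRNTR entries of MRPL33 and MRPS36, and MRPS31P5, which bears the name of a pseudogene. Reads from near-identical copies could be split between entries, and MRPL45 too has 2 entries, on chromosomes 13 and 16, which had 175 and 152 RPKM and 120.4 and 50.96 RPKM at Bl.

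Genes that work with the mitochondrial ribosome were counted in lists by role. At Bl against Mo, 3 of 6 entries of mitoribosomal proteins without an MRP name rose and 0 fell, as did 7 of 20 entries of assembly factors, 7 of 14 of translation factors and 4 of 19 of aminoacyl-tRNA synthesis, where 12% of all tested entries rose. Of the other lists, 1 of 17 entries of mitochondrial DNA expression and 2 of 11 of nuclear regulators rose and 0 fell, and both counts were 0 without blastocyst library 1. The 2 regulator entries were both entries of NRF1. Without that library the counts of the first 4 lists were 2, 0, 2 and 3, and without Mo library 2 they were 2, 6, 3 and 3. Without Mo library 3 the count for aminoacyl-tRNA synthesis was 8. The median log2 changes of these 4 lists were 1.35, 0.71, 1.44 and 0.98, and that of all tested entries was 0.23. TUFM, the elongation factor that brings transfer RNAs to the ribosome, averaged 29.1 ± 22 RPKM at Bl and 1.11 ± 1.06 RPKM at Mo (SD), with adjusted p = 3.73e-05. AURKAIP1, a small subunit protein, averaged 9.82 ± 4.63 RPKM at Bl and 0.925 ± 0.823 RPKM at Mo (SD), with adjusted p = 0.00116. SARS2, the seryl-tRNA synthetase, averaged 9.55 ± 7.19 RPKM at Bl and 0.308 ± 0.33 RPKM at Mo (SD), with adjusted p = 0.000681. QRSL1, part of the enzyme that makes glutaminyl-tRNA, averaged 23.5 ± 3.47 RPKM at Bl and 2.20 ± 2.21 RPKM at Mo (SD), with adjusted p = 0.000757. An entry of DAP3, a small subunit protein (IMMRNTR2233), averaged 1.77 ± 0.957 RPKM (SD) at Bl and was listed at 0 in all morulae. Its Bl level lay near the minimum of 1 RPKM and may be what brought it past that minimum. It counts among the 3 entries of its list that rose, and its values are given with no test. The other DAP3 entry was not called. TUFM, AURKAIP1, SARS2 and QRSL1 kept their call in limma with each of the 22 libraries left out (n = 2 at Bl and 3 at Mo).

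At 8C against 4C the calls lay mostly in other lists. Of the ribosomal proteins without an MRP name 0 of 6 entries were called and of the assembly factors 0 of 20. At an unadjusted p under 0.05 limma gave 0 higher and 0 lower in the first of these lists and 1 higher and 1 lower in the other. Elsewhere 5 of 17 entries of mitochondrial DNA expression and 6 of 11 of nuclear regulators rose and 1 of each fell. The 11 regulator entries come from a list of 9 symbols, and NRF1 has more than 1 entry, so entries are not separate genes. Of aminoacyl-tRNA synthesis 3 of 19 entries rose and 0 fell, and of translation factors 1 of 14 rose and 1 fell. Of all tested entries 13.9% rose and 10.2% fell. The count of 5 was 3 without 4C library 2, 8C library 1 or 8C library 2. TFAM, which packages and transcribes mitochondrial DNA, averaged 27.2 ± 1.29 RPKM at 8C and 0.156 ± 0.099 RPKM at 4C (SD), with adjusted p = 3.18e-07. MTERF1, named as a mitochondrial transcription termination factor, averaged 49.02 ± 14.9 RPKM at 8C and 0.014 ± 0.024 RPKM at 4C (SD), with adjusted p = 6.77e-07. MYC, a transcription factor of growth and ribosome synthesis, averaged 22.5 ± 0.291 RPKM at 8C and 0.021 ± 0.036 RPKM at 4C (SD), with adjusted p = 1.73e-08. An entry of NRF1, an activator of nuclear genes for mitochondrial proteins (IMMRNTR4082), averaged 5.58 ± 1.69 RPKM at 8C and 0.096 ± 0.167 RPKM at 4C (SD), with adjusted p = 1.93e-07. PARS2, the prolyl-tRNA synthetase, averaged 4.42 ± 0.73 RPKM at 8C and 0.35 ± 0.607 RPKM at 4C (SD), with adjusted p = 0.00149. The first 4 of these were at most 0.156 RPKM on average at 4C. At Mo against 8C, 6 of the 11 regulator entries fell and 0 rose, where 20% of all tested entries fell. At MII against GV, 4 of 20 entries of assembly factors, 2 of 19 of aminoacyl-tRNA synthesis, 2 of 17 of mitochondrial DNA expression and 1 of 6 of ribosomal proteins without an MRP name fell, where 8.97% of all tested entries fell. Of translation factors and nuclear regulators limma called 0 of 14 and 0 of 11, and at an unadjusted p under 0.05, 1 fell and 0 rose in each. The count for assembly factors was 0 without GV library 1 or 2, and those for aminoacyl-tRNA synthesis and for ribosomal proteins without an MRP name were 0 without GV library 1. The count for mitochondrial DNA expression was 1 in 17 of the 22 fits with a library left out. SSBP1, the single-stranded DNA binding protein of mitochondria, averaged 65.8 ± 25.6 RPKM at MII and 624 ± 32.5 RPKM at GV (SD), with adjusted p = 0.000708.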

How the data were processed

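RNA from single oocytes and embryos was amplified with a SMARTer ultra-low-input kit and sequenced as Illumina TruSeq libraries, per the labels' protocols. The deposited values, RPKM as made by the authors, form 1 table, a column for each library. The genome build is Mmul_8.0.1 per the submitters' processing notes; the aligner, the counter and the annotation release are not given in the sources used here, and the counting's use of strand is not given either. Symbols came from a table of Ensembl names for 39 of the 62 entries and from the file for 23.

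Depth was estimated from the step between the low values of entries under 200 bp, where 473 of 520 values (91.0%) were whole reads within 0.05, at 5.58 to 21.83 megareads per library. RPKM was converted to log2(RPKM + 1), which understates the changes of low genes, and fitted with limma 3.58.1 in R 4.3.3, with 1 mean per stage over all 22 libraries, a trended and robust spread, and Benjamini-Hochberg adjustment over the 14312 entries with at least 1 RPKM in 2 libraries. The fit was tested on simulated data. Figures and summaries used Python 3.11.15, numpy 2.4.6, pandas 2.3.3 and matplotlib 3.10.9.

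The members and the gene lists were chosen with earlier results of these data known. Genes were named where the call held with each library left out, the libraries of both stages did not overlap and the higher stage averaged at least 10 RPKM (the 4 largest changes per direction), together with the most abundant, the least and most variable, and a panel of particular members; from the other lists, the called entries with the smallest adjusted p that held with each library left out. Alternatives tried were median-of-ratios scaling, a minimum of 5 RPKM, no minimum, a pseudocount of 0.1, fits of only the stages compared, a replicate block and leaving out each library. Promoter motifs, protein sequences and mitochondrially encoded genes were not analysed here.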

Additional observations from a re-analysis of the deposited data

How the results depend on the processing

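No call of a named gene changed direction under any alternative; among the genes named for calls that held with each library left out, 14 values under the other settings lost the threshold. Counts of called entries moved by more than 1.5 times as follows. With a pseudocount of 0.1, 11 entries were called at MII against GV, 4 at PN against MII and 6 at Bl against Mo. Without a filter 4 were called at PN against MII. With median-of-ratios scaling 6 were called at MII against MI, 8 at MII against GV and 10 at Bl against Mo. In fits of only the stages compared the counts were 0 at MI against GV, 19 at MII against MI, 5 at PN against MII, 2 at Mo against 8C, 0 at Bl against Mo and 0 at Bl against 8C; fewer libraries estimate the spread there. Without the 6 entries of uncertain identity, an alternative added after the data were seen, 0 were called at MI against GV. Scaling moved the MRPL medians to 24.0 RPKM at GV, 21.1 at MI, 7.45 at PN and 36.7 at Mo, and the MRPS medians to 37.0 at GV, 25.9 at MI, 31.5 at 8C and 88.3 at Mo. It moved the median log2 change of all tested entries at MII against GV to -0.05, at Mo against 8C to -0.26, at Bl against Mo to 0.08 and at 2C against PN to 0, where the MRPL median became 0.08, opposite in sign to its -0.15.

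With 1 library left out the counts ran between 1 and 1 at MI against GV, 2 and 25 at MII against MI, 5 and 30 at MII against GV, 3 and 17 at PN against MII, 0 and 0 at 2C against PN, 0 and 1 at 4C against 2C, 12 and 25 at 8C against 4C, 9 and 25 at Mo against 8C, 3 and 29 at Bl against Mo, 19 and 43 at Bl against 8C, 32 and 48 at Bl against MII, and 53 and 61 in the F test. Replicate numbers did not pair the libraries (r between -0.067 and 0.059); the replicate block gave 14 calls at MII against MI, 21 at MII against GV, 7 at PN against MII, 18 at 8C against 4C, 19 at Mo against 8C, 21 at Bl against Mo, 36 at Bl against 8C, 46 at Bl against MII and 58 in the F test. The cause of these shifts was not tested.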

Other observations

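A further 15 entries carry a mitochondrial ribosomal protein name only in the WikiGene column of the file, and 14 of them passed the expression minimum. At Bl against MII 8 of the 14 rose and 0 fell (19.7% and 21.4% of all tested entries), at Bl against Mo 5 rose and 0 fell (12% and 2.12%), at 8C against 4C 3 rose and 0 fell (13.9% and 10.2%), and at MII against GV 2 fell and 0 rose (8.97% and 0.342%). The 2 that fell at MII against GV were MRPS12 and MRPS7. The 8 that rose at Bl against MII include MRPS16, which reached 1 RPKM in 2 libraries only. It had 2.72 RPKM in 8C library 2 and 18.3 and 0.244 RPKM at Bl, so its rise rests on blastocyst library 1. They also include MRPS5, which reached 1 RPKM in 7 libraries, all of them at 8C, Mo or Bl. Calls with a library left out are not given for these 14 entries. MRPS12, whose protein lies at the decoding centre of the small subunit, had 0.068, 0 and 0.418 RPKM at MII and 5.84 and 6.05 RPKM at GV (log2 change -2.60 ± 0.61 (SE), limma adjusted p = 0.0113). It had 5.07 and 9.86 RPKM at 8C and 0.051, 0 and 0.781 RPKM at 4C (log2 change 2.72 ± 0.61 (SE), limma adjusted p = 0.00294), and 63.7 and 9.96 RPKM at Bl, where library 1 stood well above library 2. MRPS7, related to bacterial S7, had 33.7 and 22.3 RPKM at 8C and 0.719, 2.02 and 0.4 RPKM at 4C (log2 change 3.88 ± 0.72 (SE), limma adjusted p = 0.000557). MRPS5, related to bacterial S5, had 85.9 and 45.5 RPKM at Bl and 0, 0.251 and 0 RPKM at MII (log2 change 5.88 ± 0.49 (SE), limma adjusted p = 3.52e-08). The libraries compared did not overlap in any of these pairs. MRPL12, a protein of the stalk, reached at most 1.93 RPKM, in blastocyst library 1, and was not tested.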
